A study of Mus musculus with 4 samples.

Results

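Connexins are the subunits of gap junctions. In the floxed-control and Stim1/Stim2-deficient epidermis profiled here, 4 connexin genes of keratinocytes were examined: Gja1 (connexin 43), Gjb2 (connexin 26), Gjb5 (connexin 31.1) and Gjb6 (connexin 30). They were chosen by gene name from a table of 56493 genes, in which all 4 are listed, and the contrast of interest sets Gjb2 and Gjb6, which are linked to epidermal hyperplasia, against Gja1 and Gjb5. The RNA came from the epidermal layer of dorsal skin, separated from the dermis with sodium thiocyanate. One group, here called cKO, held 2 libraries from mice whose Stim1 and Stim2 were deleted by a Cre recombinase under the keratin 14 promoter, which is active in basal keratinocytes and other epithelial cells of the skin; the other, the control, held 2 libraries from mice with floxed Stim1 and Stim2 alleles. The labels give neither age nor sex, and do not say whether the 2 libraries of a group came from separate mice. The p-values therefore measure only the spread between these libraries, estimated for each gene partly from the other tested genes.

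A connexin protein crosses the plasma membrane several times, assembles with others into a hemichannel, and docks with a hemichannel of the neighbouring cell to form a channel that passes ions and small messengers, calcium-mobilising ones among them. Pannexins are membrane proteins that mostly form channels of single membranes. In resting epidermis connexin 43 is the widespread connexin of the lower living layers, connexin 31.1 is found in differentiating layers, and connexins 26 and 30 are known for rising in wounded, psoriatic or otherwise thickened epidermis. STIM1 and STIM2 sense calcium in the endoplasmic reticulum and activate entry channels at the plasma membrane when its store runs low.

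The promoter windows of the 3 connexins that had any reads are shown first, to set the genes side by side. They come from RefSeq on GRCm38.p6, run from 250 bases before to 50 bases after the transcription start, and are written 5′ to 3′ on the gene's own strand. Capitals mark matches to AP-1 (TGANTCA), the GC box (GGGCGG) or the TATA box (TATAAA), on either strand.
Gja1, chr10:56377050-56377349, plus strand: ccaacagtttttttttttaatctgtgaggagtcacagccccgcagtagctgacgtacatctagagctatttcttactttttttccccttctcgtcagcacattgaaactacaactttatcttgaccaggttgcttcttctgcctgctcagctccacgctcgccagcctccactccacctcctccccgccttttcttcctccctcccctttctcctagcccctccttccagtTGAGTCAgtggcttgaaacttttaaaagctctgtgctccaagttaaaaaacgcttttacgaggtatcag
Gjb2, chr14:57104653-57104952, minus strand: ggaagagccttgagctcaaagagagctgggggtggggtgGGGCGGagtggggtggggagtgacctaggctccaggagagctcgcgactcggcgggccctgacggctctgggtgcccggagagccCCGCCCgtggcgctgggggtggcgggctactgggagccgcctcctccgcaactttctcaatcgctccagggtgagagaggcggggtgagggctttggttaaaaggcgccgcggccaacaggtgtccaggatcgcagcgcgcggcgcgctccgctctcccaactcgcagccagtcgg
Gjb5, chr4:127358115-127358414, minus strand: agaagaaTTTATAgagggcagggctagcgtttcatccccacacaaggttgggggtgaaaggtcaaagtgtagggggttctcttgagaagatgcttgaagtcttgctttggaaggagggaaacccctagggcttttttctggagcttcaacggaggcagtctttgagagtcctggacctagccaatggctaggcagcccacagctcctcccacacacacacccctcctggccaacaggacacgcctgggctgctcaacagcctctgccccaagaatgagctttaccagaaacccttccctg
The Gja1 window held 1 AP-1 match, starting at letter 232 of the printed sequence, and no match to the other motifs. The Gjb2 window held 2 GC boxes, the first starting at letter 40, and 70% of its letters were G or C, against a median of 52.7% over 32851 promoter windows. The Gjb5 window held 1 TATA-box match at letter 8, which lies far upstream of the start. The Gjb6 window held none of the 3 motifs. An AP-1 match was found in 7.81% of all windows, a GC box in 35.7% and a TATA box in 13.6%, and none of the matches shown overlap. These matches are descriptions of the letters and were not related to the counts.

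The 4 libraries were shallow, with total counts from 118858 (cKO replicate 2) to 322426 (control replicate 2). Values below are counts, or normalised counts (CPM, scaled to library size after TMM). The TMM factor was lowest in cKO replicate 2 (0.833, against 0.997 in cKO replicate 1 and 1.08 and 1.12 in control replicates 1 and 2). This raises the CPM of cKO replicate 2 against those of the other libraries. A count of 0 allows up to 3 counts, equal to 12.1 and 33.7 CPM in cKO replicates 1 and 2 and to 16.01 and 9.58 CPM in control replicates 1 and 2; such limits and all Poisson intervals cover counting error only. The cKO counts of Stim1 were 23 and 6 and its control counts 24 and 62, and those of Stim2 were 0 and 1 against 3 and 18; each cKO value in CPM lay below each control value, and Stim1 did not pass the test (edgeR quasi-likelihood, adjusted p 0.671). Keratinocyte markers were abundant: 18 of the 20 spinous and granular genes listed passed the count filter, as did 10 of the 11 basal genes. Over all 4243 genes tested, 36 were called at an adjusted p under 0.05, which is 0.848%; 28 were higher in cKO (0.66%) and 8 lower (0.189%).

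Of the 4 connexins, 3 had a count in any library and 2, Gja1 and Gjb5, passed the count filter. Gja1 had its highest levels in the cKO libraries, Gjb5 had its highest levels in the control libraries, Gjb2 was detected in 1 cKO library, and Gjb6 was at 0 in all 4. None of them was called over all genes tested, so 0 of 2 tested members were called, against a background of 0.848% in either direction, 0.66% higher and 0.189% lower. With edgeR 1 of the 2, Gjb5, had an unadjusted p under 0.05, as did 356 of all 4243 tested genes (8.39%). DESeq2 and limma-voom called 0, and their unadjusted p for Gjb5 was 0.160 (DESeq2) and 0.180 (limma-voom). In bulk epidermis, fewer cells of a type and less RNA per cell cannot be told apart.

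**Figure D1:**
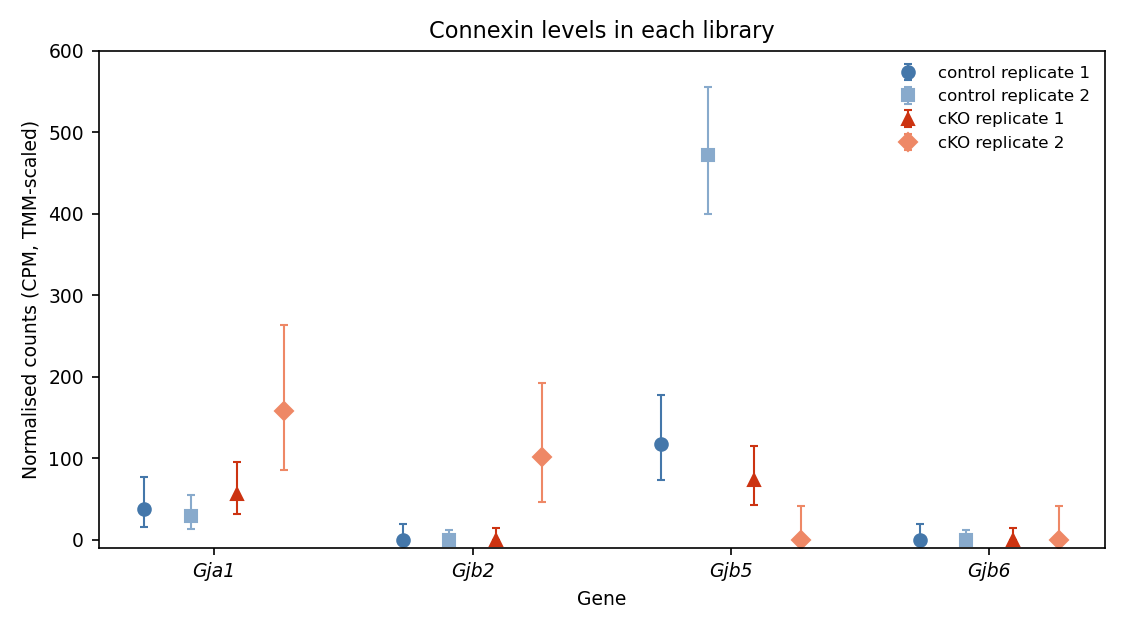
Normalised counts (CPM, vertical axis) of Gja1, Gjb2, Gjb5 and Gjb6 in each library; points are single libraries and bars are exact 95% Poisson intervals of the count. Gjb5 in control replicate 2 stands at 473 CPM, far above the other points, and Gjb2 leaves 0 only in cKO replicate 2.

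Gja1 (ENSMUSG00000050953) is encoded on chromosome 10, 56253426 to 56278609, plus strand, on GRCm39, the build named in the submitters' processing notes; it makes connexin 43, the most widely expressed connexin. Its counts were 14 and 14 in cKO replicates 1 and 2, and 7 and 9 in control replicates 1 and 2. These were 56.6 and 157 CPM in cKO and 37.4 and 28.7 CPM in control, or 107 ± 71.2 CPM (SD, n = 2) against 33.05 ± 6.09 CPM (SD, n = 2). Both cKO libraries lay above both control libraries, an order that 18.9% of all tested genes showed. Scaled to library totals only, Gja1 was at 49.6 and 118 CPM in cKO replicates 1 and 2, and 34.9 and 27.9 CPM in control replicates 1 and 2. It passed the count filter only through the cKO libraries, so under that filter it could only come out higher. The Poisson interval of cKO replicate 1 (30.9 to 94.98 CPM) overlapped those of both control libraries (15.02 to 77.0 and 13.1 to 54.6 CPM), whereas that of cKO replicate 2 (86.0 to 264 CPM) overlapped neither.

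The fitted log2 fold difference of Gja1 was 1.59 with a standard error of 0.74 and an unadjusted 95% interval from -0.01 to 3.18, and it did not pass the test (edgeR quasi-likelihood, adjusted p 0.597, unadjusted p 0.0508). Its size rested on cKO replicate 2, the shallowest library: the log2 fold difference was 0.80 without it and 2.21 without cKO replicate 1. At the rate of cKO replicate 1, 5.90 counts would have fallen in cKO replicate 2, where 14 were counted. Gja1 stayed positive and uncalled in all 13 alternatives, with adjusted p from 0.164 to 0.9997. With library totals as the only scaling, where the median of all genes moved to -0.24, Gja1 was at 1.30, or 1.54 relative to that median.

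Connexin 43 is also made by fibroblasts, vessel cells and other non-epithelial cells, so their markers were read beside it. Summed over the 11 dermal fibroblast markers, cKO replicates 1 and 2 held 14 and 71 counts and the controls 56 and 49, which is 0.00496% and 0.0597% of the library against 0.0280% and 0.0152%. The highest fibroblast share thus fell in cKO replicate 2, where Gja1 was also highest, and the lowest in cKO replicate 1, where Gja1 was above both control libraries. Pdgfra, Pdgfrb and Fbn1 were at 0 in every library, while Col3a1 had 26 counts in cKO replicate 2. The 12 vessel and smooth muscle markers had between 1 and 3 counts in any library, with Cdh5, Kdr and Cldn5 at 0 throughout. The part of such cells in the Gja1 values was not tested.

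Gjb5 (ENSMUSG00000042357), on chromosome 4, 127248602 to 127251974, minus strand, with 2 exons, makes connexin 31.1 of stratified epithelia. Its counts were 18 and 0 in cKO replicates 1 and 2, and 22 and 148 in control replicates 1 and 2. These were 72.8 and 0 CPM in cKO against 117 and 473 CPM in control, with means of 36.4 ± 51.5 CPM (SD, n = 2) and 295 ± 251 CPM (SD, n = 2). Both cKO libraries lay below both control libraries, as in 19.6% of all tested genes, but control replicate 1 was nearer to cKO replicate 1 than to the other control library. The intervals of cKO replicate 1 (43.1 to 115 CPM) and control replicate 1 (73.6 to 178 CPM) overlapped, and that of control replicate 2 (400 to 555 CPM) overlapped no other.

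The log2 fold difference of Gjb5 was -2.66 with a standard error of 0.80 and an unadjusted interval from -4.40 to -0.93, and it did not pass the test over all genes (edgeR quasi-likelihood, adjusted p 0.222, unadjusted p 0.00545). Single libraries decided the value. Control replicate 2 held 148 of the 188 counts, and without it the log2 fold difference was -1.37 (adjusted p 0.999). Without control replicate 1 it was -3.34 and passed (adjusted p 0.000250), and without cKO replicate 2 it was -2.03 (adjusted p 0.0718). Without cKO replicate 1 the only cKO library left is at 0, so that the fitted -8.90 (adjusted p 6.51e-05) is no measure of size. It also passed with no filter on low counts (-2.72, adjusted p 0.00152), and over the 13 alternatives the adjusted p ran from 6.51e-05 to 0.9997, the highest with DESeq2. At the rate of cKO replicate 1, 7.58 counts would have fallen in cKO replicate 2, where 0 were counted; at the rate of control replicate 1, 35.4 would have fallen in control replicate 2, where 148 were counted.

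**Figure D2:**
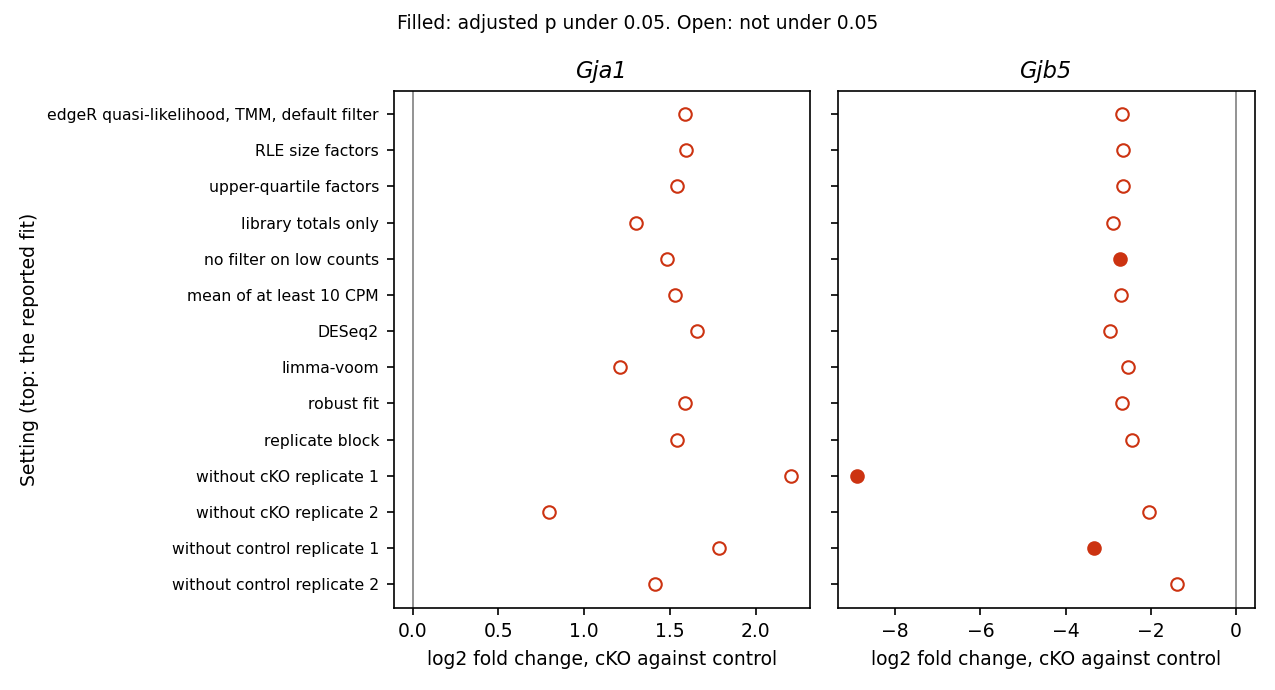
Fitted log2 fold difference (cKO against control, horizontal axis) of Gja1 and Gjb5 in the reported fit and 13 alternatives (vertical axis); filled points have an adjusted p under 0.05. Gja1 lies between 0.80 and 2.21 with no filled point, and Gjb5 between -8.90 and -1.37 with 3 filled points.

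Gjb2 (ENSMUSG00000046352) lies on chromosome 14, 57336057 to 57342159, minus strand, with 2 exons, and makes connexin 26. All 9 of its counts came from cKO replicate 2, and the other 3 libraries were at 0. The 9 counts were 101 CPM with an exact 95% Poisson interval from 46.3 to 192 CPM, above the limits of 12.1, 16.01 and 9.58 CPM in the other 3 libraries. The library with Gjb2 was the shallowest, and at its rate the depth of cKO replicate 1 would give 21.4 counts, and that of control replicates 1 and 2 would give 15.2 and 24.4. cKO replicate 1 was thus at 0 as both controls were, and no fold is given. Gjb2 fell under the count filter; added to the tested genes, it did not pass (edgeR quasi-likelihood, adjusted p 0.597, unadjusted p 0.0518), with adjusted p from 0.252 to 0.999 over 12 alternatives. How molecular identifiers were handled is not given in the sources used here, so the number of molecules behind the 9 counts is unknown.

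Gjb6 (ENSMUSG00000040055), the neighbour of Gjb2 on chromosome 14 (57360760 to 57371068, minus strand), makes connexin 30 and lies 18600 bases from it. It had 0 counts in all 4 libraries, which allows up to 12.1, 33.7, 16.01 and 9.58 CPM in cKO replicates 1 and 2 and control replicates 1 and 2. A difference in Gjb6 below these limits was not detectable at this depth. Transcripts of Gjb2 and Gjb6 were at most 79.1% identical over a stretch of 483 bases, and no gene reached 95% identity over 150 bases with any of the 4 connexins in GENCODE M21. None of the 4 shared exon bases with another gene of the table.

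The contrast of Gjb2 and Gjb6 with Gja1 and Gjb5 therefore rested on 1 library. Of the counts of the 4 connexins, Gjb2 and Gjb6 took 9 of 23 in cKO replicate 2 (39.1%, 95% Wilson interval 22.2% to 59.2%). They took 0 of 32 in cKO replicate 1, and 0 of 29 and 0 of 157 in control replicates 1 and 2. The upper 95% Wilson limits of these shares were 10.7%, 11.7% and 2.39%. The group means differed by 19.6 percentage points, with an SD of 27.7 between the 2 cKO libraries; the difference was 0 without cKO replicate 2 and 39.1 without cKO replicate 1. With all connexins of the table as the denominator it was 11.8 percentage points, and with counts divided by exon length it was 36.6. Reads of a 3′ kit do not grow with length, and this division shrinks Gja1 (10257 bases) most, which raises the share of Gjb2. With such counts in 1 cKO library only, the difference between group means was bound to be smaller than the SD between the cKO libraries. Within the other pair the 2 genes pointed in opposite directions, Gja1 with a log2 fold difference of 1.59 and Gjb5 with one of -2.66, and neither passed the test. As Gja1 entered the test only through the cKO libraries, its sign there was fixed.

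**Figure D3:**
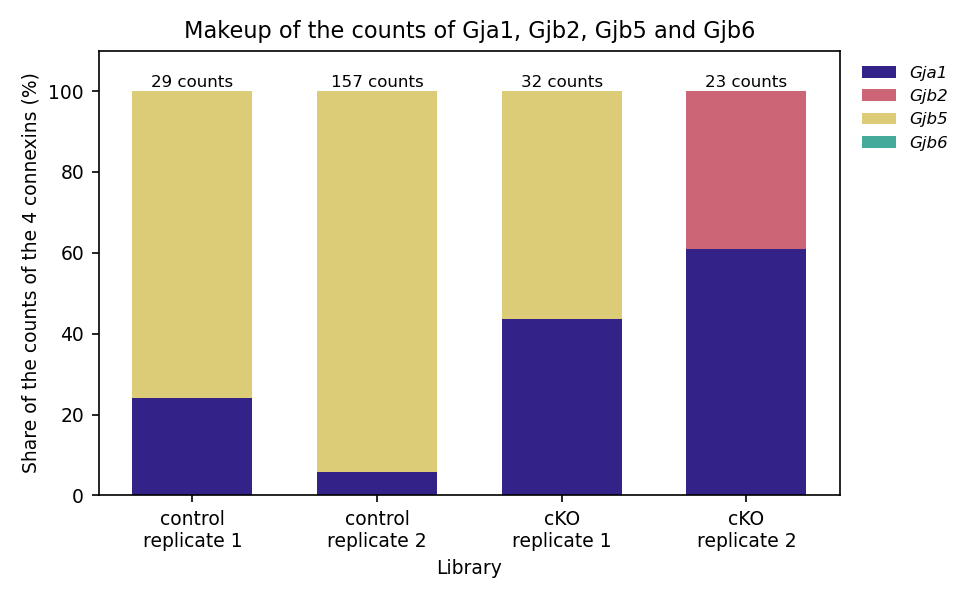
Share of each of the 4 connexins in their summed counts (vertical axis, percent) in the 4 libraries, with the number of counts above each bar. Gjb5 fills 94.3% of control replicate 2 and 0% of cKO replicate 2, the only library with Gjb2.

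The makeup of the connexin counts differed between libraries of the same group. Gjb5 made up 75.9% of the 29 counts of the 4 genes in control replicate 1 (95% Wilson interval 57.9% to 87.8%) and 94.3% of 157 in control replicate 2 (89.5% to 96.96%). It made up 56.3% of 32 in cKO replicate 1 (39.3% to 71.8%) and 0% of 23 in cKO replicate 2 (0% to 14.3%). Gja1 took 24.1% (12.2% to 42.1%) and 5.73% (3.04% to 10.5%) in control, and 43.8% (28.2% to 60.7%) and 60.9% (40.8% to 77.8%) in cKO. These shares do not depend on the scaling of the libraries, and in them too the Gja1 values of cKO lay above those of control and the Gjb5 values below. Since Gja1 and Gjb5 make up all counts in 3 of the 4 libraries, a higher share of one there is a lower share of the other. The 4 genes together had 11.3 and 19.4 counts per 100000 in cKO replicates 1 and 2, and 14.5 and 48.7 in control replicates 1 and 2. The highest value was that of control replicate 2, the library rich in Gjb5.

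Connexins of blood vessels were near 0. Gja5, a connexin of arterial endothelium and heart, had 2 counts in control replicate 2 and 0 elsewhere, and Gja4, another vessel connexin, had 1 count in the same library. Among the pannexins, Panx1 gave counts of 16 and 2 from cKO and 3 and 16 from control libraries, with overlapping groups and a log2 fold difference of 0.44 with an interval from -1.48 to 2.36 (edgeR quasi-likelihood, adjusted p 0.988). Panx3 had 4 counts in cKO replicate 1 and 0 elsewhere, and Panx2 had none. The fold of Panx1 is smaller than the spread within each group.

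Levels of different genes were compared as CPM per kilobase of the exon length in the table, although reads of a 3′ kit come from the transcript end and do not grow with length. In control the order of the 4 genes was Gjb5 with 171 ± 146 CPM per kilobase and Gja1 with 3.22 ± 0.594 (SD, n = 2), which did not overlap, followed by Gjb2 and Gjb6 at 0. In cKO it was Gjb5 with 21.1 ± 29.9, Gjb2 with 21.02 ± 29.7 and Gja1 with 10.4 ± 6.94 CPM per kilobase (SD, n = 2), each overlapping its neighbour in this order, with Gjb6 at 0. Without division by length the cKO order turned around, to Gja1 with 107 ± 71.2 CPM, Gjb2 with 50.6 ± 71.5 and Gjb5 with 36.4 ± 51.5 (SD, n = 2), while in control Gjb5 stayed above Gja1 (295 ± 251 against 33.05 ± 6.09 CPM). The exon length of Gja1, 10257 bases, joins 8 transcripts and lowers its value on this scale relative to the 1721 bases of Gjb5.

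Proteins that bind connexins or govern their phosphorylation, trafficking and turnover were read as the wider set around the connexins. Of 37 such genes 21 were tested, 0 were called by edgeR, DESeq2 or limma-voom, and 1 had an unadjusted p under 0.05 with edgeR, against 8.39% of all tested genes. Of the 21, 7 had a positive and 14 a negative log2 fold difference, against 2137 positive and 2106 negative over all tested genes, and the median was -0.30 against 0.01. Ctnnb1, which encodes the adherens junction protein beta-catenin, gave 32 and 28 counts from cKO and 21 and 35 from control libraries and had a log2 fold difference of 0.91 that did not pass (edgeR quasi-likelihood, adjusted p 0.716). Eps15, an endocytic adaptor, gave 14 and 4 counts from cKO and 20 and 45 from control libraries and had the most negative log2 fold difference of the list at -1.26 (adjusted p 0.593). Cdh1 (E-cadherin) gave 99 and 52 counts against 135 and 170 and a log2 fold difference of -0.37 (adjusted p 0.936). These 3 were chosen after their values were seen.

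Genes known for rising in hyperplastic or wounded epidermis were read beside Gjb2 and Gjb6. Of the 21 listed genes found by name, 9 were tested, of which 5 rose in cKO and 0 fell with edgeR (5 called with DESeq2 and 1 with limma-voom; at an unadjusted p under 0.05, 7 higher and 1 lower); the median log2 fold difference was 4.87, or 4.28 when each gene with at most 3 counts in both control libraries takes the bound that 3 counts give, against 0.01 over all tested genes. The genes that rose were Krt6a, Krt6b, Il36a, Stfa1 and Stfa3. For Krt6b, Il36a, Stfa1, Stfa3 and Sprr2h, 5 of the 9 tested, both control libraries held at most 3 counts. These genes, and Krt6a with 4 and 9 control counts, could pass the count filter only through the cKO libraries and so could only come out higher. All 5 genes called with edgeR are among them. The list was also chosen with earlier results of these data known, so its calls and median are descriptions only. Krt6a, a stress keratin, gave 117 and 96 counts from cKO against 4 and 9 from control libraries and had a log2 fold difference of 4.87 ± 0.60 (standard error; edgeR quasi-likelihood, adjusted p 0.000620). Il36a, an interleukin-36 cytokine, gave 95 and 10 counts against 1 and 0 (adjusted p 0.00378). Both cKO libraries carried high counts of these genes, including cKO replicate 1, in which Gjb2 had 0 counts. Krt16 and Krt17, the other stress keratins of the list, had log2 fold differences of 0.16 and -1.39 and did not pass (adjusted p 0.992 and 0.264). Krt6a and Krt6b are similar in sequence, as are the stefin genes, and how reads shared by such copies were counted is not given in the sources used here.

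**Figure D4:**
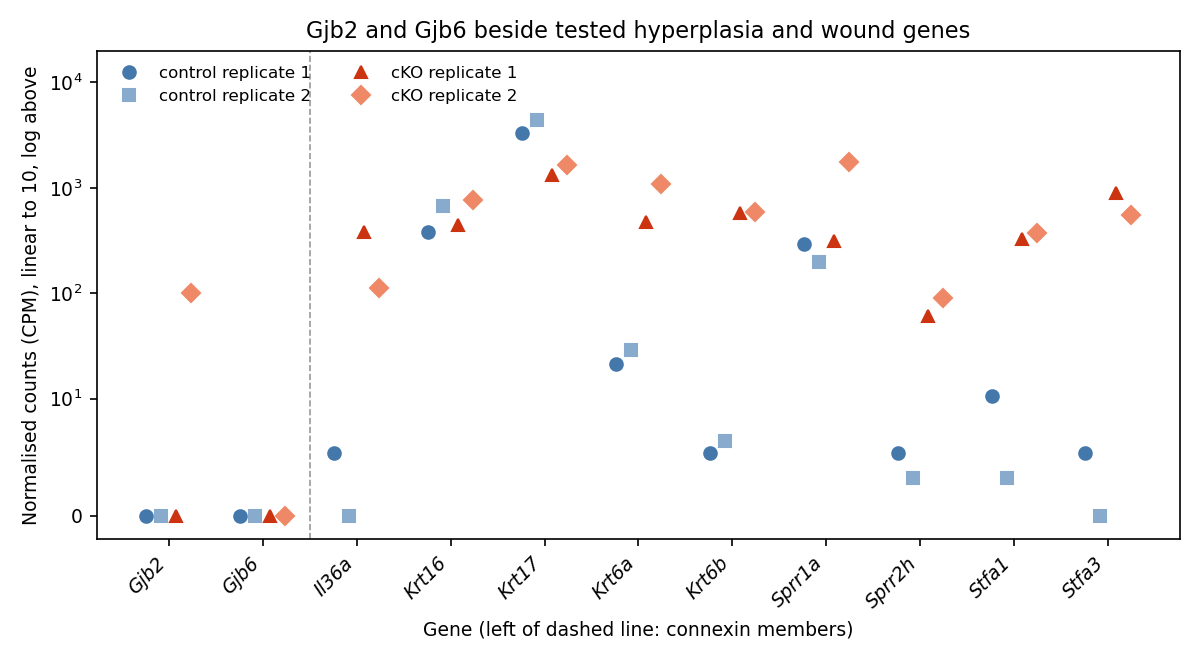
Normalised counts (CPM, vertical axis, linear to 10 and logarithmic above) of Gjb2, Gjb6 and the 9 tested hyperplasia and wound genes in each library; each point is 1 library. Krt6a, Krt6b, Il36a, Stfa1 and Stfa3 are high in both cKO libraries, whereas Gjb2 is above 0 only in cKO replicate 2 and Gjb6 nowhere.

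Other layers and cell types gave these values beside the connexins; the counts at an unadjusted p under 0.05 are from edgeR and stand against 8.39% of all tested genes. Of the 10 tested basal genes 0 were called with edgeR (1 with DESeq2, 1 with limma-voom, 2 at an unadjusted p under 0.05), with a median log2 fold difference of 0.10; of the 18 tested spinous and granular genes 3 rose with edgeR, Flg, Hrnr and Casp14 (3 called with DESeq2 and 2 with limma-voom), with a median of 0.59; at an unadjusted p under 0.05, 4 were higher and 3 lower, the lower ones being Tgm3 (-2.15), Dsg1a (-1.51) and Ivl (-1.20). The 5 tested proliferation genes had a median of 0.56 and 0 calls with edgeR, DESeq2 and limma-voom (1 at an unadjusted p under 0.05), and their list of 18 made up 0.0641% and 0.0412% of the cKO libraries and 0.0454% and 0.0444% of the control libraries. In the hair follicle list 1 of 5 tested genes rose (Postn) and 0 fell with edgeR, with a median of -0.75 (2 called with DESeq2 and 2 with limma-voom). At an unadjusted p under 0.05, 2 of them were higher, Postn and Krt79 (1.89), and 2 lower, Tchh (-1.91) and Krt75 (-1.96). In the skeletal muscle list 4 of 8 tested genes fell, among them Myh4 and Pvalb, with a median of -5.55, or -2.21 with 6 genes at their bound (DESeq2 called 2 and limma-voom 0), and the whole list made up 0.00461% and 0.0143% of the cKO libraries against 0.152% and 0.107% of the control libraries. Those 6 genes had at most 3 counts in both cKO libraries. They could pass the count filter only through the control libraries and so could only come out lower. Casp14 of the granular list, with 0 and 2 counts in control, could likewise only come out higher. The same holds for Postn of the hair follicle list, with 7 and 11 counts in control, which passed the filter only through the cKO libraries. The immune list had 0 calls with any of the 3 tools among 8 tested genes (2 at an unadjusted p under 0.05, median -0.43) and took 0.148% and 0.305% in cKO against 0.412% and 0.256% in control. Sebaceous gland genes had 0 calls with the same tools among 9 tested (3 at an unadjusted p under 0.05, median 0.60). Melanocyte genes summed to 36 and 39 counts (cKO) and 63 and 32 (control), nearly all from Dct, with Tyr at 0 throughout, and nerve genes had 14 and 5 against 6 and 15, with Gfap at 0. The part of these cell types in the connexin values was not tested.

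The genes whose levels over the 4 libraries most resembled each connexin were listed by the root mean square distance of centred log2 CPM, among 3571 tested genes whose mean reached 50 CPM. For Gja1 they were Plekha7, an adherens junction protein (12 and 10 counts in cKO, 6 and 7 in control, distance 0.11), Timm17a, a subunit of the mitochondrial import machinery (0.13), and the pseudogene Tubb4b-ps2 (0.13). For Gjb5 they were Btc, an epidermal growth factor family ligand (8 and 0 counts in cKO, 19 and 92 in control, distance 0.38), Tgm3, a transglutaminase of hair and cornified cells (12 and 0 against 23 and 50, distance 0.63), and the dipeptidase Cndp2 (11 and 0 against 11 and 38, distance 0.68). All 3 of these genes were at 0 in cKO replicate 2 and highest in control replicate 2, as Gjb5 was. For Gjb2, whose pattern is that of 9 counts in 1 library, the nearest of 3572 genes were Sprr1a (0.44), the predicted gene Gm52999 (0.50) and the cysteine protease inhibitor Cst6 (0.56). These distances were larger than those of Gja1 and within the range of those of Gjb5 (0.38 to 0.68). With 4 libraries many genes share such patterns, so these lists are descriptions only.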

How the data were processed

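RNA from the epidermis of 2 cKO and 2 control libraries was sequenced from the transcript 3′ end (QIAseq UPX kit, per the labels' protocols). The authors deposited raw counts per gene, with exon positions and lengths per the file headers, and left them without normalisation. The submitters' processing notes name Trim Galore 0.6.7, Trimmomatic 0.39, cutadapt 3.7, STAR 2.7.10a, featureCounts 2.0.1 and GRCm39; strand, molecular identifiers and multi-mapping reads are not given in the sources used here. Table coordinates were not combined with those of the GRCm38.p6 promoters.

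Genes were kept with filterByExpr (minimum count 10, total 15; 4243 genes), scaled with TMM over the kept genes and tested with edgeR 4.0.16 (R 4.3.3; glmQLFit, glmQLFTest, genotype only) with Benjamini-Hochberg adjustment over all of them, at 0.05. Standard errors are the absolute log2 fold change over the square root of F. Gjb2 was added in a second fit. The fitting code was also tested on simulated data with known changes. DESeq2 1.42.0, limma-voom 3.58.1, other scalings and filters, a replicate block and left-out libraries were alternatives. Per gene, 3 most similar genes were named.

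The members, the 16 gene lists and the naming rule (members, Stim1, Stim2, other connexins and pannexins with at least 10 counts, called list genes; some genes it names are not reported here) were chosen with earlier results of these data known. Near-identical transcripts were searched with blastn in GENCODE M21.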

Additional observations from a re-analysis of the deposited data

How the results depend on the processing

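Depth limited every connexin value: at most 148 counts of any of them fell in a library, and Gjb6 had none. Gja1 kept its direction and stayed uncalled in 13 alternatives. Under the default filter that direction was fixed, as Gja1 passed only through the cKO libraries. Gjb2 stayed positive and uncalled in 12, but all its 9 counts lay in cKO replicate 2, so its direction came from that library alone. Without cKO replicate 2 it had no value, as all libraries left are at 0. Gjb5 kept its direction in 13 and passed the threshold in 3: no filter on low counts (log2 fold change -2.72) and 2 of the 4 in which 1 library was left out, which ranged from -8.90 to -1.37. Left-out libraries gave 0.80 to 2.21 for Gja1. Such fits leave 1 library in a group, which is assumed to vary like the other group. The share of Gjb2 and Gjb6 ran from 0 to 39.1 percentage points with a library left out. Over all genes, 36 were called (28 higher, 8 lower). The number was 75 with no filter, 55 with a mean of at least 10 CPM, 15 with limma-voom, and 52 to 86 with a library left out; with library totals only it was 41 (26 higher, 15 lower). Deviations of same-numbered libraries had a correlation of -0.22 over 3572 genes. With 2 libraries per group, this value cannot show whether same-numbered libraries share a batch or a pairing. With the replicate block 17 genes were called (16 higher, 1 lower), Gja1 was at 1.54 (edgeR adjusted p 0.926) and Gjb5 at -2.43 (adjusted p 0.758); no connexin call changed. With crossed numbers as a replicate block, chosen after seeing the data, 147 genes were called. The cause of these differences was not tested.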
